A study of Mus musculus with 20 samples.

Results

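The follistatin-like genes Fstl1, Fstl4 and Fstl5 were followed through mouse subiculum pyramidal cells, the output neurons of the hippocampal formation. They were taken by symbol, having been chosen by their bulk and single-cell levels in these same data. They are 3 of the 37607 gene rows in the bulk table, and all 3 were among the 13916 genes that passed the filter on low counts. The bulk data are 12 libraries of fluorescent neurons that were sorted by hand after microdissection of slices, in 4 populations of 3 libraries that differ in where the cells project: NA, PFC, RSC or VHN. The labels leave these targets unexplained, name no genotype, strain, sex or age, and do not say whether replicates came from separate animals or pools. NA usually stands for nucleus accumbens, PFC for prefrontal cortex and RSC for retrosplenial cortex, and VHN is left as written. The same cell type was also profiled in 384 wells of single cells on 4 plates, of which 348 wells with at least 1000 detected genes were kept. The wells carry no projection target and were treated as 1 sample.

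Follistatin is a secreted protein that binds activins and some bone morphogenetic proteins (BMPs) and keeps them from their receptors. Follistatin-like proteins share its cysteine-rich follistatin domain, but differ in the rest of the chain. FSTL1 is a small glycoprotein made by many mesenchymal tissues, with reported binding to BMP4 and to DIP2A. FSTL4 and FSTL5 are larger proteins with calcium-binding and immunoglobulin-like domains, and both are known mainly from the nervous system. FSTL4, also called SPIG1, marks a subset of retinal ganglion cells and has been linked to the processing of brain-derived neurotrophic factor.

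The 3 genes had 3 different patterns. Fstl5 was high in every NA library, intermediate in PFC and low in RSC and VHN. Fstl4 was scarce, with its highest libraries in NA and PFC and no fragment in 3 of the 6 libraries of RSC and VHN. Fstl1 was present in every library at levels that overlapped between all populations. In single cells Fstl5 was found mostly in wells with Rprm, and Fstl4 in a few wells with Dcn and Nos1. Fstl1 was scattered over many neurons, and its highest CPM were in wells that lacked the neuronal marker Slc17a7, which were shallower.

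The bases upstream of the starts of Fstl4 and Fstl5 are shown where they hold the cAMP response element, TGACGTCA, or its shorter core, TGACG. Capitals mark the matched letters, which read CGTCA where the short element lies on the other strand. The sequences are from the RefSeq promoter table of build GRCm38.p6, matched by symbol, and the motifs were chosen after the sequences had been seen. All windows are on the plus strand, chr11:52764618-52764647 for Fstl4, then chr3:76074474-76074503 and chr3:76074505-76074534 for Fstl5.
Fstl4, 77 bases before the start: ggcccggagggTGACGTCAcgggctccggt
Fstl5, 75 bases before the start: gcaaaacagttaCGTCAgatgtgggggcgg
Fstl5, 44 bases before the start: gcacaccggggtTGACGggcagcctggctt

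The full element was found upstream of Fstl4 only, and it was present in 1.55% of the 32851 promoters of the table when the same 250 bases before the start were searched on both strands. The short element, which every full element also contains, was present in 17.8% of promoters. It occurred 2 times upstream of the first of the 2 listed starts of Fstl5, and was not found upstream of the second start or of Fstl1. The GC box, GGGCGG, was found upstream of Fstl1, of Fstl4 and of the first Fstl5 start, and in 32.7% of all promoters. The letters CCAAT were found upstream of Fstl4 and of the first Fstl5 start but not of Fstl1, and in 33.8% of promoters. TATAAA was found upstream of the first Fstl5 start only (12.4% of promoters), and CACGTG upstream of none of these genes. These matches describe letters, and binding was not measured.

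Fstl5 (ENSMUSG00000034098) had 67.8, 69.0 and 54.0 CPM (fragments relative to the library's total, scaled between libraries by TMM) in NA replicates 1 to 3. The PFC libraries had 42.4, 18.8 and 9.56 CPM, those of RSC 0.404, 7.06 and 5.56, and those of VHN 1.21, 13.6 and 17.1 CPM. The lowest NA library was above the highest library of every other population. PFC lay wholly above RSC but overlapped VHN, and VHN overlapped RSC. The means were 63.6 ± 8.35 in NA, 23.6 ± 16.9 in PFC, 10.6 ± 8.36 in VHN and 4.34 ± 3.49 in RSC (SD, n = 3 each). The order was therefore NA, PFC, VHN and RSC, in which PFC and VHN, and VHN and RSC, are neighbours that did not differ beyond their spread. NA was 2.70-fold above PFC in mean CPM and 14.7-fold above RSC.

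Fstl4 (ENSMUSG00000036264) had 121, 14 and 31 fragments in NA, or 7.52, 1.5 and 1.62 CPM. In PFC it had 82, 135 and 2 fragments, or 7.11, 9.35 and 0.188 CPM. In RSC there was no fragment in replicates 1 and 2 and 42 in replicate 3 (2.03 CPM), and in VHN there were 0, 1 and 20 fragments (0, 0.0595 and 1.17 CPM). NA replicate 1 and PFC replicates 1 and 2 were the only libraries above RSC replicate 3, and PFC replicate 3 was below it. The means were 5.55 ± 4.78 CPM in PFC, 3.54 ± 3.44 in NA, 0.676 ± 1.17 in RSC and, lowest, 0.409 ± 0.657 in VHN (SD, n = 3 each). Only the ranges of NA and VHN did not overlap, so no neighbours in this order differed beyond their spread.

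Fstl1 (ENSMUSG00000022816) was at 76.4, 60.4 and 62.0 CPM in NA and at 75.9, 72.5 and 26.0 CPM in PFC. The RSC libraries were at 44.8, 42.6 and 73.2 CPM and the VHN libraries at 73.6, 38.1 and 90.8 CPM. All populations overlapped. The lowest library was PFC replicate 3 and the highest VHN replicate 3. The means were 67.5 ± 26.9 CPM in VHN, 66.3 ± 8.78 in NA, 58.1 ± 27.9 in PFC and 53.5 ± 17.0 in RSC (SD, n = 3 each).

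**Figure D1:**
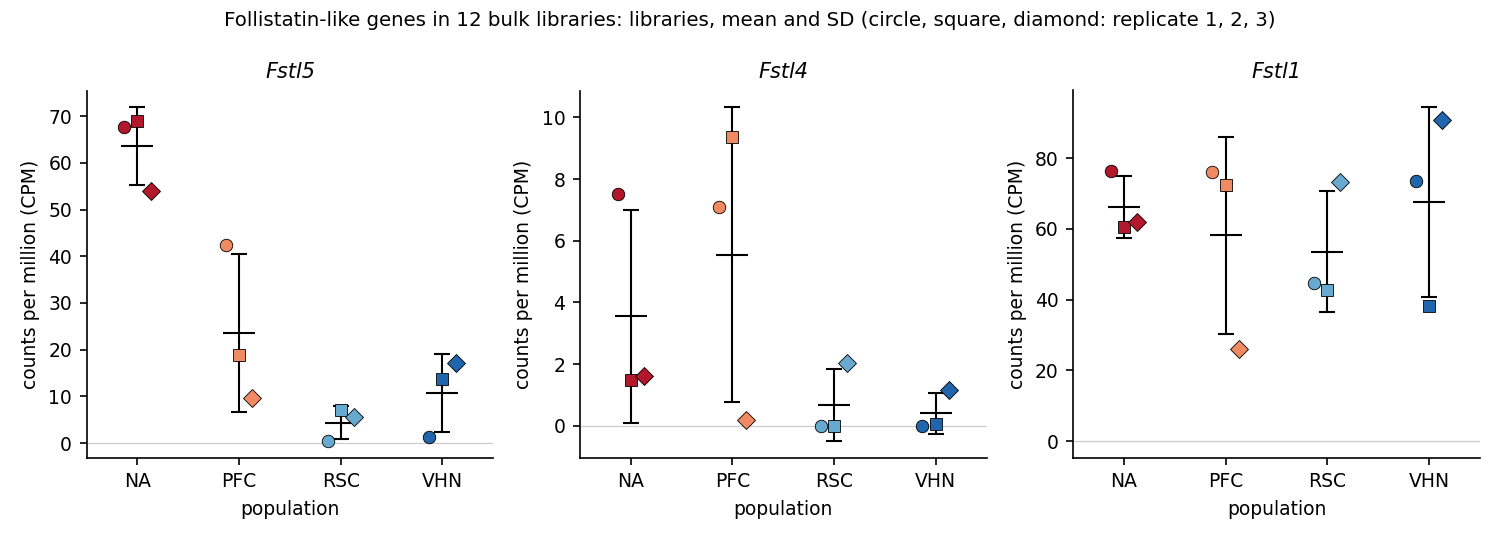
CPM of Fstl5, Fstl4 and Fstl1 (y axes, each with its own scale) in the 4 populations (x axis). Symbols are single libraries, and the black marks give the mean and SD of 3 libraries. Fstl5 in NA, at 54.0 to 69.0 CPM, stands above all other libraries, Fstl4 stays under 10 CPM in every library, and Fstl1 overlaps between all populations.

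Set as means of NA and PFC against RSC and VHN, Fstl5 was 43.6 ± 25 against 7.49 ± 6.69 CPM (SD, n = 6 each), a fitted log2 difference of 2.51 (SE 0.65). Fstl4 was 4.55 ± 3.88 against 0.543 ± 0.862 CPM, with a log2 difference of 3.06 (SE 1.43). Fstl1 was 62.2 ± 19.0 against 60.5 ± 21.5 CPM, with a log2 difference of 0.05 (SE 0.30) whose sign changed with library totals as the only scaling (-0.02) and when single libraries were left out. With edgeR's quasi-likelihood test at an adjusted p of 0.05, Fstl5 was 1 of the 3 genes called among the 4 populations, where 8.93% of all tested genes were called. It was also the 1 called in the comparison of both pairs, where 14.2% of genes were called. Nothing is read from these counts, since these values chose the genes. In bulk samples, fewer cells with a transcript and less of it per cell cannot be told apart.

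The low Fstl4 and Fstl5 levels of RSC and VHN varied with a few libraries. Without RSC replicate 3 the log2 difference of Fstl4 was 6.26, without VHN replicate 3 it was 4.81, and without RSC replicates 2 and 3 and VHN replicate 3 it was 7.98. The last omission took the log2 difference of Fstl5 to 4.48. Those 3 libraries also held transcripts of inhibitory neurons. Gad2, an enzyme that makes GABA, was at 0, 43.3 and 177 CPM in RSC and 0.158, 0.238 and 91.9 CPM in VHN. It ranged from 0.156 to 7.40 CPM in NA and from 0.416 to 0.520 in PFC. The summed level of 10 interneuron markers was 5.25 to 243 CPM in RSC, 1.52 to 190 in VHN, 0.156 to 12.1 in NA and 0.520 to 2.70 in PFC. Their part in the Fstl4 and Fstl5 levels was not tested. VHN replicate 2 had 13.6 CPM of Fstl5 with 0.238 CPM of Gad2, and all 12 libraries held the 8 pyramidal and excitatory markers.

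On a scale per transcript length, the authors' FPKM, Fstl1 was the most abundant of the family over all 12 libraries (20.8 ± 5.21 FPKM, SD), then Fstl5 (10.1 ± 9.53) and Fstl4 (0.681 ± 0.944). Within NA this order did not hold: Fstl5 had 23.3 ± 5.48 FPKM and Fstl1 19.8 ± 0.818 (SD, n = 3 each), and their spreads overlapped. Fst, which encodes follistatin itself, had 26 fragments in all 12 libraries together, and Fstl3, which encodes a secreted activin inhibitor, had 10. Both were under the filter.

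The wider pathway was read from 6 lists with 83 genes, of which 54 passed the filter. Among these, 15 were called in the 4-group test (27.8%, against 8.93% of all genes). Between NA with PFC and RSC with VHN, 11 were called higher in NA and PFC, against 7.58% of all genes, and 5 lower, against 6.66%. The median log2 difference was 0.43 over the lists and 0.01 over all genes tested. These values describe the lists, which were chosen with earlier results known. The 4-group calls include Inhbb, which passed the filter through the population where it was high. Of the calls, 6 of 15 in the 4-group test and 11 of 16 between the pairs held in each of 12 fits that left out 1 library.

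Among the proteins that share a follistatin-type domain, 8 of 15 listed genes were tested, 4 were called higher and 2 lower in NA and PFC, and the median log2 difference was 0.67. Spock1, which encodes the heparan sulfate proteoglycan testican-1, had its highest mean in PFC (238 ± 129 CPM), then NA (166 ± 65.1), RSC (23.2 ± 12.6) and VHN (17.1 ± 9.39, SD, n = 3 each). Its log2 difference was 3.32 (SE 0.41, adjusted p = 4.94e-05). Agrn, the gene of the synapse-organizing proteoglycan agrin, was higher in NA and PFC by a log2 difference of 1.17 (SE 0.30, adjusted p = 0.0148). Spock2 was called higher with a log2 difference of 0.73 (adjusted p = 0.00666). Its 4-group call was lost without NA replicate 1 or 2. Sparcl1, the gene of the matrix protein hevin, was lower in NA and PFC, with a log2 difference of -1.85 (adjusted p = 3.35e-06), opposite in direction to Fstl5. The call of Smoc2 rested on few libraries, at 5.92 ± 8.78 CPM in PFC and under 1 CPM on average elsewhere. Its call between the pairs held in 4 of the 12 fits that left out a library and its 4-group call in 2. Tmeff2 was called lower, but not without PFC replicate 3, RSC replicate 1 or VHN replicate 1.

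Of 19 ligand genes of the activin, BMP and TGF-beta family, 10 were tested, and 7 of these were not called between the pairs. The median log2 difference was 2.41. It includes low genes such as Inhbb (0.0381 CPM in NA, 0 in RSC and 0.0988 in VHN), which passed the filter through PFC. Nothing is read from this median for that reason. Tgfb2 was at 232 ± 162 CPM in PFC, 52.9 ± 44.3 in NA, 15.7 ± 24.4 in VHN and 1.46 ± 1.02 in RSC (SD, n = 3 each). It was higher in NA and PFC by a log2 difference of 4.54 (SE 0.82, adjusted p = 0.00127). Bmp2, at 8.30 ± 3.97 CPM in PFC, was called higher, and Gdf11, at 38.6 ± 5.5 CPM in RSC against 4.03 ± 5.48 in NA, was called lower. These calls, at adjusted p of 0.0481 and 0.0456, held in 3 and 2 of the 12 fits that left out a library. Inhbb, an activin subunit, was called in the 4-group test (adjusted p = 0.0111) with 6.25 ± 7.99 CPM in PFC, but not without PFC replicate 3. Nothing is read from this call, since the gene passed the filter through PFC, where it was high. Inhba, the subunit of activin A, was at 20.2 ± 21.9 CPM in NA, 17.2 ± 21.9 in PFC, 2.59 ± 1.25 in VHN and 1.87 ± 2.75 in RSC, and did not pass (adjusted p = 0.0596 between the pairs).

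Of 14 receptor genes, 11 were tested. Acvr1c, which encodes the activin-like receptor ALK7, was at 71.2 ± 48.9 CPM in PFC, 24.9 ± 13.4 in NA, 8.42 ± 5.04 in VHN and 4.03 ± 0.732 in RSC (SD, n = 3 each). Its log2 difference was 2.85 (SE 0.50, adjusted p = 0.000979), and 2.69 when RSC replicates 2 and 3 and VHN replicate 3 were left out together. RSC replicate 1 stood alone in that fit, where fewer list genes were called in both tests. Weaker calls there are thus not particular to Acvr1c. Acvr1b, which encodes the activin receptor ALK4, was called in the 4-group test with 200 ± 49.5 CPM in NA, 123 ± 38.8 in VHN, 101 ± 2.28 in PFC and 77.3 ± 20.2 in RSC (adjusted p = 0.0192). It did not pass between the pairs (adjusted p = 0.0819), and its 4-group call was lost without NA replicate 3, RSC replicate 1 or RSC replicate 2. The other 9 tested receptors did not pass either test. Bmpr2, a receptor of BMPs, had 530 ± 107 CPM in NA and 329 to 388 CPM on average in the other populations.

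Extracellular inhibitors went both ways. Bmper, which encodes a secreted modulator of BMPs, was at 29.5 ± 12.6 CPM in RSC, 16 ± 11.2 in VHN, 0.509 ± 0.434 in PFC and 0.294 ± 0.310 in NA (SD, n = 3 each). It was lower in NA and PFC, with a log2 difference of -5.86 (SE 0.79, adjusted p = 0.000105). Grem1, the gene of the BMP antagonist gremlin-1, was at 13.5 ± 9.75 CPM in PFC, 10.7 ± 5.94 in NA, 2.55 ± 2.16 in VHN and 0.273 ± 0.266 in RSC, a log2 difference of 3.82 (SE 0.94, adjusted p = 0.0111). Crim1, a membrane protein that binds BMPs, was called in the 4-group test with 548 ± 95.7 CPM in NA and 321 to 351 CPM on average in the other populations, but not without NA replicate 2. Inside the cell, Skil, a repressor of SMAD signalling, was called higher in NA and PFC (log2 difference 0.67, SE 0.13, adjusted p = 0.00263). Its 4-group call was lost without RSC replicate 1. No Smad gene was called: Smad3 had a log2 difference of 0.97 (SE 0.35, adjusted p = 0.0759) and Smad4 of 1.22 (SE 0.45, adjusted p = 0.0808).

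The reported binding partners of FSTL1 were also measured, of which 7 of 9 passed the filter. Atp1b1 was called lower, with a log2 difference of -0.23, which held in 2 of the 12 fits that left out a library. Among the DIP2 genes, Dip2a and Dip2b passed neither test. Dip2c was called in the 4-group test (adjusted p = 0.0326) but in 6 of the 12 such fits. Tlr4 and Cd14 were under the filter. Fstl1 itself overlapped between all populations, as given above.

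**Figure D2:**
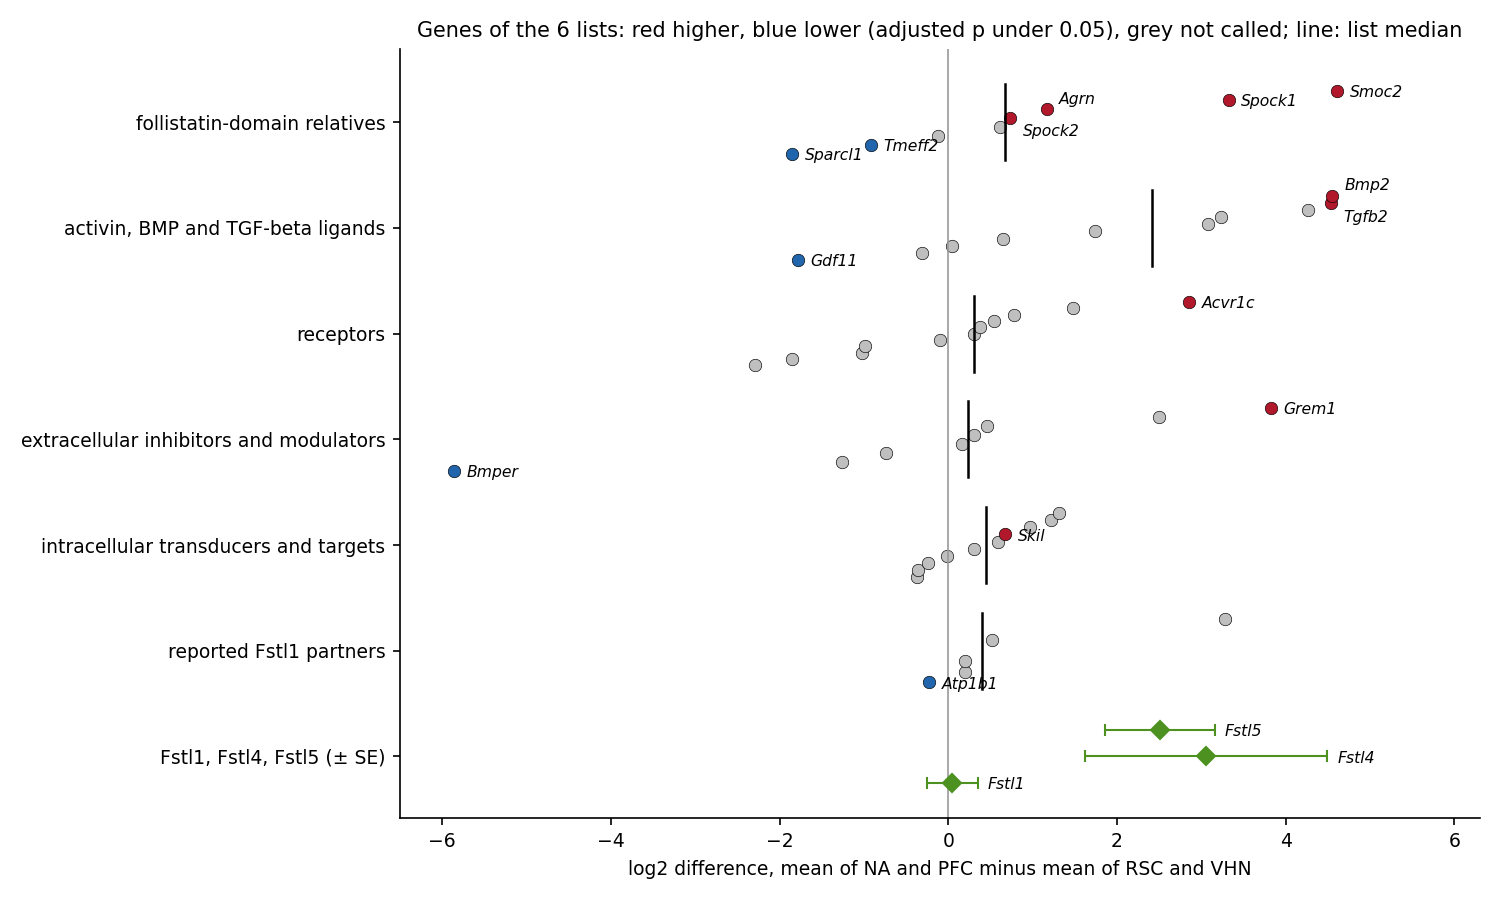
Log2 difference between the mean of NA and PFC and the mean of RSC and VHN (x axis) for tested genes of the 6 lists (rows), with the median of all tested genes of the list as a line and the 3 follistatin-like genes as green diamonds with their SE. Fstl5 (2.51) and Fstl4 (3.06) lie on the side of Spock1, Tgfb2, Acvr1c and Grem1, Bmper and Sparcl1 lie on the other side, and Fstl1 lies at 0.05.

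In the single cells, Fstl1 had a count in 119 of 348 wells (34.2%, exact 95% interval 29.2 to 39.4%). Fstl5 had one in 46 (13.2%, interval 9.84 to 17.2%) and Fstl4 in 9 (2.59%, interval 1.19 to 4.85%). None of the 3 was counted in any of the 36 wells under 1000 detected genes, which had a median of 146 counts (interval 0 to 9.74%). All intervals cover counting error only. When wells were thinned to 20000 counts, which left out 8 shallower wells, Fstl1 remained in 68 of 340 wells (20.0%), Fstl5 in 31 (9.12%) and Fstl4 in 9 (2.65%). Averaged over all possible draws, thinning would leave 72.7, 30.8 and 6.51 wells.

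Where a gene was counted, the 3 levels were alike in the middle of their ranges. The median well had 63.7 CPM of Fstl5 (7.32 to 752 CPM), 58.5 of Fstl4 (27.8 to 294) and 55.8 of Fstl1 (4.69 to 1904). The 5 highest wells held 43.4% of all Fstl5 counts and 17.3% of all Fstl1 counts. Fstl5 thus ran from single counts in 6 wells to a maximum of 89 counts. By plate, Fstl5 was counted in 5.62% of wells on Q5, 16.3% on Q6, 7.23% on Q7 and 23.3% on Q8. Q8 was the deepest plate, at a median of 145717 counts per well, and after thinning the range was 5.68 to 13.5%.

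Rprm was set beside Fstl5 as a fixed marker, and was also the gene most like Fstl5 in these same wells. Its shares, also those by plate, are therefore not independent of that likeness. Rprm encodes reprimo, a cell-cycle inhibitor. At equal depth Fstl5 was counted in 23 of 81 wells with Rprm (28.4%, interval 18.9 to 39.5%, mean 44.4 CPM) and in 8 of 259 without it (3.09%, interval 1.34 to 6%, mean 3.09 CPM). The share was higher in wells with Rprm on each of the 4 plates: 21.4 against 2.70% on Q5, 40.0 against 1.54% on Q6, 18.8 against 3.23% on Q7 and 29.0 against 5.17% on Q8. Without thinning it was 37 of 118 wells (31.4%) against 9 of 230 (3.91%). Wells with a count of Fstl5 were also deeper, at a median of 135340 counts against 110618.

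Fstl5 was found with Rprm whether or not the neuropeptide gene Nts was present, in 15 of 55 wells with Rprm and Nts (27.3%) and in 8 of 26 with Rprm alone (30.8%). In wells with Rprm but neither Nts nor the calcium-binding protein gene Calb1, it was 8 of 18 (44.4%, interval 21.5 to 69.2%). It was 0 of 57 in wells with Calb1 but no Nts (interval 0 to 6.27%) and 0 of 19 in wells with Nts and Sv2c, a synaptic vesicle protein gene (interval 0 to 17.6%). Over all wells with Calb1, with or without Nts, it was 9 of 95 (9.47%), against 22 of 245 without Calb1 (8.98%). In wells with Nts but no Sv2c it was 22 of 210 (10.5%). Fstl5 was also in 2 of 78 wells with Dcn (2.56%) and 29 of 262 without it (11.1%). Every one of the 46 wells with Fstl5 had a count of Slc17a7, the vesicular glutamate transporter of cortical pyramidal neurons, and Fstl5 was in 0 of the 22 wells without it (interval 0 to 15.4%). Slc17a7 was counted in 326 of all 348 kept wells.

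The 9 wells with Fstl4 were few, and alike in some markers but not in all. They lay on all 4 plates, 2 on Q5, 3 on Q6, 2 on Q7 and 2 on Q8, with 3 to 30 counts of Fstl4 each. All 9 also had Dcn, which encodes the small matrix proteoglycan decorin, with 47 to 401 counts, and all 9 had Slc17a7. Nos1, the neuronal nitric oxide synthase gene, had 5 to 52 counts in 8 of them and none in the other one. None had Gad1, Gad2 or Col1a2, which were counted in only 3, 2 and 15 of all 348 kept wells. Of the 348 wells, Slc17a7 was counted in 326 and Dcn in 94 (27.0%). At equal depth Fstl4 was in 9 of 78 wells with Dcn (11.5%, interval 5.41 to 20.8%) and 0 of 262 without it (interval 0 to 1.40%). With Nos1 it was 8 of 34 (23.5%, interval 10.7 to 41.2%), against 1 of 306 without (0.327%). Nos1 was chosen as the gene most like Fstl4 in these same wells, so these shares describe that choice and support nothing further. Dcn was also among the genes most like Fstl4 in these wells, so its shares are not independent of that likeness. Among the 29 wells with both Dcn and Nos1, 8 had Fstl4 (27.6%), and 1 of the 49 wells with Dcn alone did (2.04%). The 1 well with Fstl4 but no Nos1 had 75 counts of Rprm and 9 of Fstl5. As deposited, Nts was counted in 4 of the 9 wells and Calb1 in 6.

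Fstl4 was in 1 of 164 wells with Slc17a6, the second vesicular glutamate transporter (0.610%), and in 8 of 176 without it (4.55%). It was in 2 of 229 wells with Nts (0.873%) and 7 of 111 without (6.31%). With Calb1 it was 5 of 95 (5.26%), against 4 of 245 without (1.63%). These differences rest on 9 wells.

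**Figure D3:**
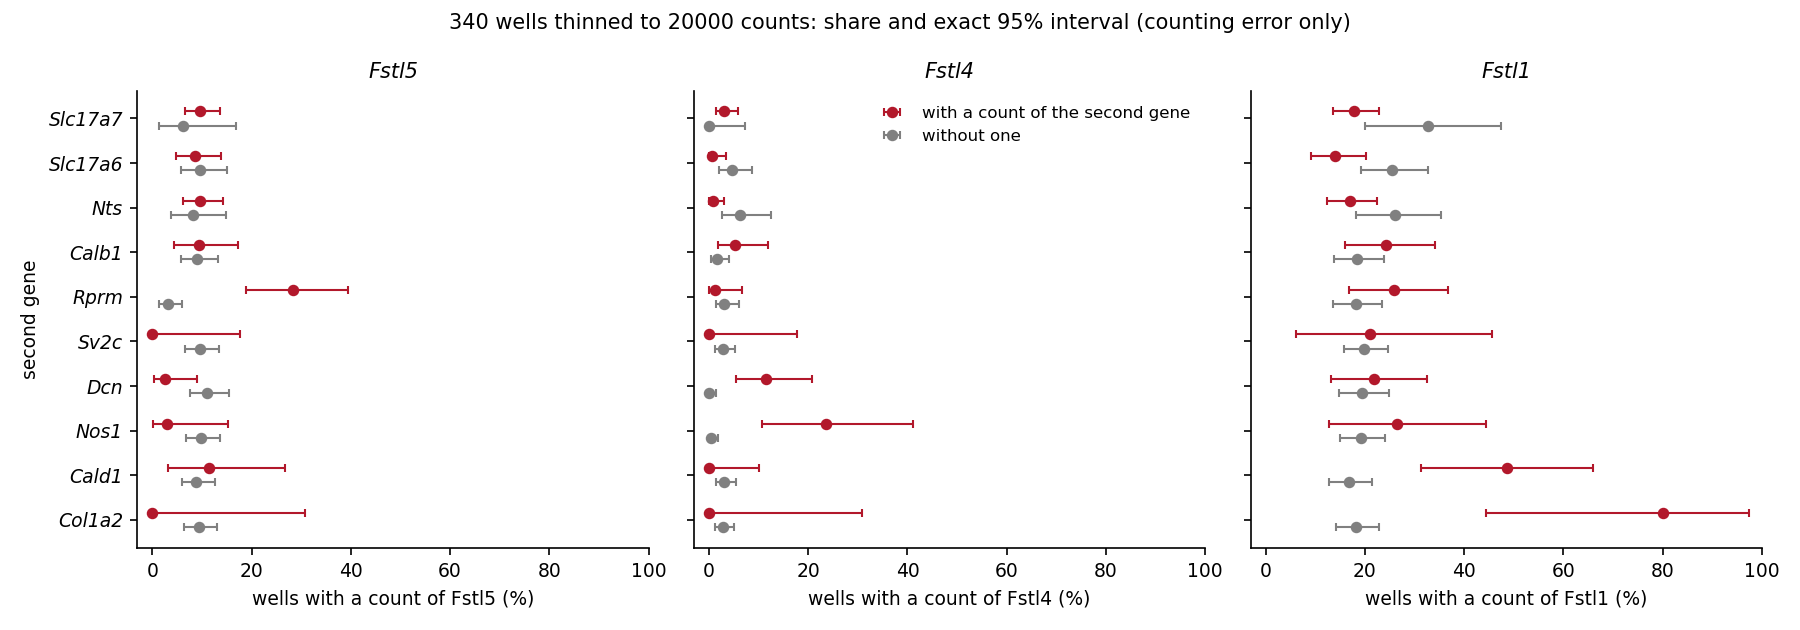
Share of 340 wells with a count of Fstl5, Fstl4 or Fstl1 (x axes, percent) among wells with (red) and without (grey) a count of each second gene (rows), after thinning to 20000 counts. Bars are exact 95% intervals. Fstl5 is at 28.4% with Rprm and 3.09% without, Fstl4 is at 11.5% with Dcn and 0% without, and Fstl1 is at 80.0% with Col1a2 and 18.2% without.

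Fstl1 was in 104 of 326 wells with Slc17a7 (31.9%, interval 26.9 to 37.3%) and in 15 of 22 without it (68.2%, interval 45.1 to 86.1%). The second group was shallower, with a median of 32967 against 113930 counts per well. At equal depth the shares were 52 of 291 (17.9%, interval 13.6 to 22.8%) with Slc17a7 and 16 of 49 (32.7%, interval 19.9 to 47.5%) without it, and these intervals overlap. The wells without Slc17a7 at equal depth include wells whose counts of it were lost in thinning. On plate Q7 the order at equal depth was the opposite, with 21.7% of wells with Slc17a7 and 5.56% of wells without it. As deposited, plate Q7 had Fstl1 in 20 of 78 wells with Slc17a7 (25.6%) and in 2 of 5 without it (40.0%). Among wells with a count, the median level of Fstl1 was 177 CPM without Slc17a7 and 44.9 CPM with it. These levels are not at equal depth, and a single count is a higher CPM in a shallower well. The lowest levels were 27.5 CPM without Slc17a7 and 4.69 CPM with it. Of the 22 wells without Slc17a7, 15 had Col1a2, a collagen chain gene typical of fibroblasts, and 12 of those 15 had Fstl1. Col1a2 was counted in 0 of the 326 wells with Slc17a7 (interval 0 to 1.13%). At equal depth Fstl1 was in 8 of 10 wells with Col1a2 (80.0%, interval 44.4 to 97.5%) and in 60 of 330 without it (18.2%, interval 14.2 to 22.8%). It was in 17 of 35 wells with the actin-binding protein gene Cald1 (48.6%) and 51 of 305 without (16.7%), but Cald1 was chosen as the gene most like Fstl1 in these wells. With Rprm the Fstl1 share was 25.9% and without it 18.1%, and with Dcn it was 21.8% and without it 19.5%, differences within the intervals. Most wells with Fstl1 were thus wells with Slc17a7, while the highest CPM were in wells without it, which were shallower. The highest count, 41, was in a well with Slc17a7.

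**Figure D4:**
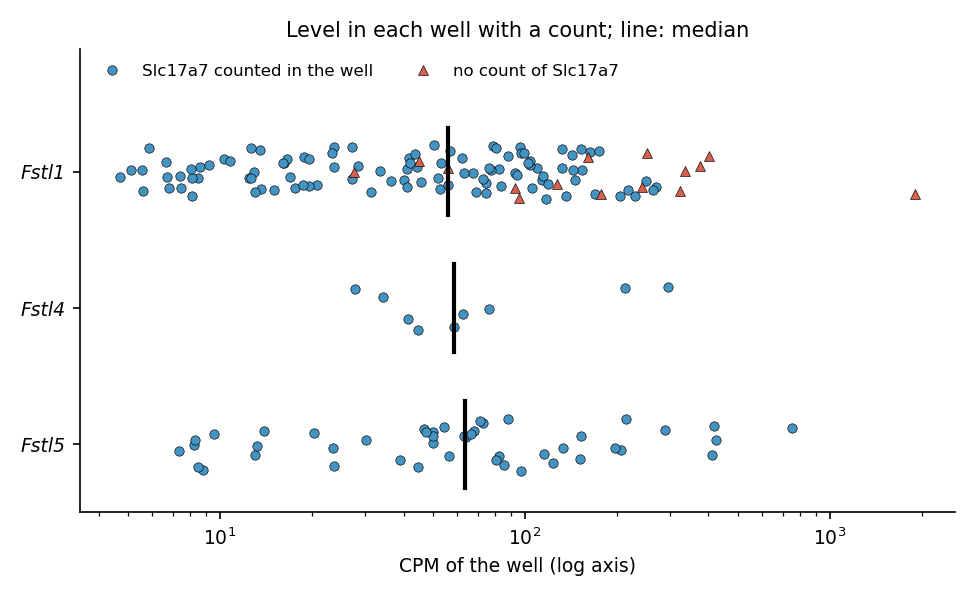
CPM (x axis, log scale) in each well with a count of Fstl5 (46 wells), Fstl4 (9) or Fstl1 (119), with the median as a line. Circles are wells with a count of Slc17a7 and triangles wells without. All Fstl5 and Fstl4 wells are circles, and the 15 triangles of Fstl1 lie at a median of 177 CPM.

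Few wells held more than 1 member. Of the 348 wells, 199 had none of them, 125 had 1, 23 had 2 and 1 had all 3. Fstl1 and Fstl5 shared 23 wells, which is 19.3% of the Fstl1 wells and 50% of the Fstl5 wells, where the product of both shares gives 15.7 wells. At equal depth this was 5 wells against 6.20. Fstl4 shared 2 wells with Fstl5 as deposited and none at equal depth.

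The genes set beside Fstl4 and Fstl5 in the wells were looked up in the bulk libraries. Dcn was at 253 ± 140 CPM in PFC, 63.7 ± 28.3 in NA, 4.22 ± 3.11 in VHN and 3.20 ± 5.55 in RSC (SD, n = 3 each). Nos1 was 166 ± 88.8 CPM in PFC, 30.3 ± 34.3 in NA, 3.8 ± 6.58 in RSC and 1.31 ± 0.784 in VHN. Both thus had their highest means in PFC and NA, as Fstl4 did, but the Fstl4 ranges of PFC and NA overlapped. Within PFC, replicate 3 was lowest for Fstl4 (0.188 CPM), Nos1 (66.6) and Dcn (92.6). Within RSC, replicate 3 was highest for all 3 genes (2.03, 11.4 and 9.61 CPM), and this library also had 177 CPM of Gad2. Within NA the 3 genes differed, where replicate 1 had the highest Fstl4 (7.52 CPM) and the lowest Nos1 (2.11). Dcn is also 1 of 6 genes in the list of fibroblast and meningeal markers, whose summed level was 92.6 to 347 CPM in PFC, 39.3 to 93.9 in NA, 0 to 9.66 in RSC and 1.94 to 7.74 in VHN. Of its 6 genes, 4 or 5 were at 0 in each NA and PFC library. Col1a1 was at 0 in all of them, Col1a2 was at most 0.107 CPM, Col3a1 at most 1.67 CPM and Lum at most 0.953 CPM. The part of these transcripts in the Fstl4 levels was not tested. Rprm was 22.9 ± 21.7 CPM in PFC, 16 ± 12.7 in NA, 12.8 ± 12.9 in VHN and 0.449 ± 0.434 in RSC. Its ranges overlapped between NA, PFC and VHN, while NA alone was highest for Fstl5: NA replicate 2 had 69.0 CPM of Fstl5 with 1.5 of Rprm. In VHN, replicates 1 to 3 had 0.158, 12.3 and 26.0 CPM of Rprm, and Fstl5 was also lowest in replicate 1.

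**Figure D5:**
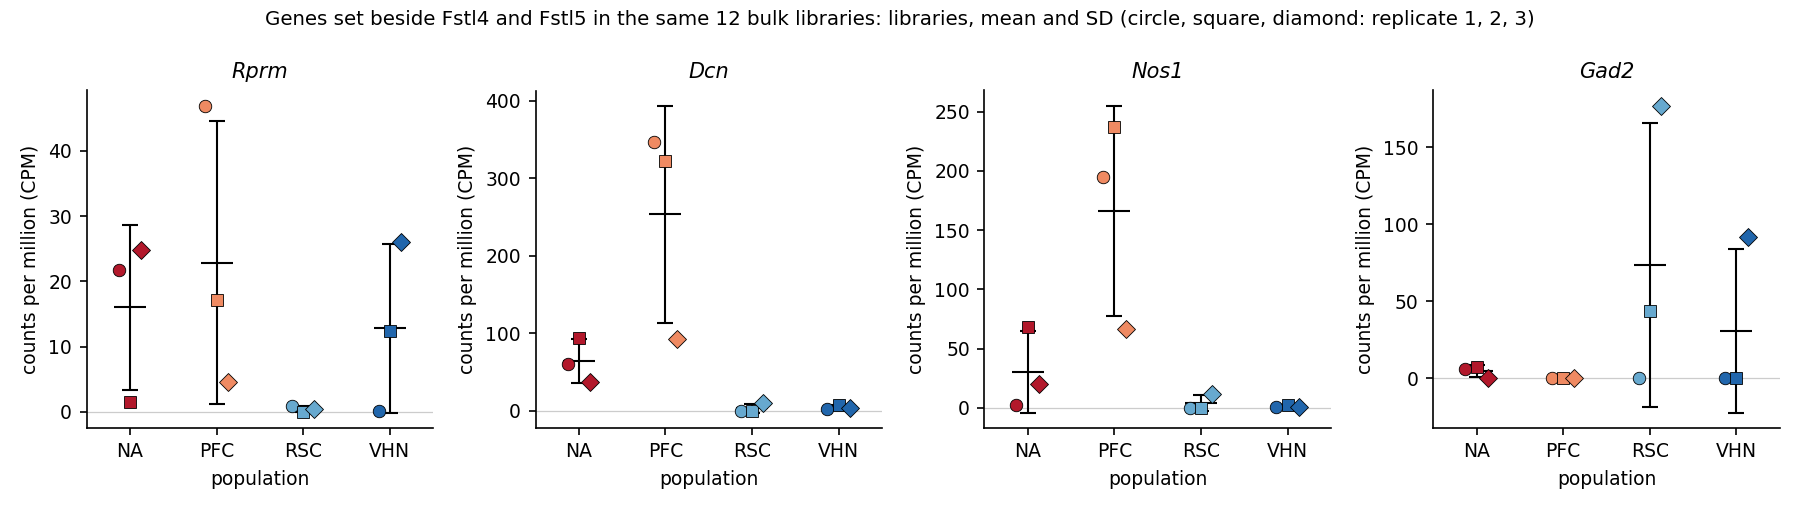
CPM of Rprm, Dcn, Nos1 and Gad2 (y axes, each with its own scale) in the 12 bulk libraries by population (x axis), with the mean and SD of 3 libraries. Dcn and Nos1 are highest in PFC, Rprm overlaps between NA, PFC and VHN, and Gad2 is high in RSC replicates 2 and 3 and VHN replicate 3.

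Over the 12 bulk libraries, the genes most like Fstl5 by Pearson's r of log2(CPM + 1) were Frmd3 and Osbp2 (both 0.92), Kctd4 (0.92), Myo16 (0.91) and Met (0.91), a receptor tyrosine kinase gene. Osbp2 had 118 ± 52.0 CPM in NA, 67.3 ± 11.8 in PFC, 30.4 ± 14.7 in VHN and 23.8 ± 12.2 in RSC (SD, n = 3 each), which is the population order of Fstl5. The most opposite was Gria1, an AMPA receptor subunit gene (-0.96), with 968 ± 19.1 CPM in NA and 1553 ± 152 in RSC. For Fstl4, r was 0.90 with Dctn6, a dynactin subunit gene, and the most opposite gene was Fam131a (-0.91). For Fstl1 they were Nubpl (0.91) and Rara (-0.86). Among the members, r was 0.65 between Fstl4 and Fstl5, 0.61 between Fstl1 and Fstl4 and 0.28 between Fstl1 and Fstl5. These are descriptions over 12 libraries of 4 populations that share depth and any difference between populations. Over the 340 thinned wells, the most alike were Rprm for Fstl5 (0.37), Nos1 for Fstl4 (0.44) and Cald1 for Fstl1 (0.29), among genes counted in at least 10% of wells. These are the second genes whose shares of wells are given above.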

How the data were processed

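The 3 genes and all lists were chosen with earlier results of these data known. Bulk values are from a Cuffdiff read-group table, per the file headers, on build mm9, per the submitters' processing notes. The aligner and annotation release are not given in the sources used here. The authors deposited raw fragments, that is, expected counts per gene and library (10777273 to 20904126 per library), which were rounded here, and FPKM values, per the file headers. The single-cell table holds deposited counts per gene and well, with a median of 112401 per kept well. Bulk replicates are numbered from 0 in the table and from 1 in the labels, and were taken to run in the same order, which bears only on the names of libraries.

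Genes were filtered with filterByExpr and scaled by TMM in edgeR 4.0.16, and all 12 libraries entered 1 quasi-likelihood fit. The tests were the 4-group test and NA with PFC against RSC with VHN, Benjamini-Hochberg adjusted at 0.05 over 13916 genes. The adjusted p-values are edgeR's. The p-values measure the spread between libraries, which may be technical. The 3 members are described without a p-value, and nothing is read from their calls, since these values chose them. From each list, up to 4 genes with the lowest adjusted p of the 4-group test were named, with any other called gene of a list with at most 5 calls. Some genes that this rule or the measure of likeness names are not reported here. A second gene in the wells was taken from fixed markers or, for Nos1 and Cald1, from the most alike genes. Of the fixed markers, Rprm was also the gene most like Fstl5, and Dcn was among those most like Fstl4. Thinning used 1 random draw. Intervals are Clopper-Pearson. Alternatives were other scalings, other filters, DESeq2 1.42.0, log2(FPKM + 1), a replicate block and omitted libraries or plates.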

Additional observations from a re-analysis of the deposited data

How the results depend on the processing

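The log2 difference between NA with PFC and RSC with VHN stayed above 0 for Fstl5 and Fstl4 in every alternative that gave it. It was not computed with the other filters or the DESeq2 test, which gave only numbers of genes called. Leaving out 1 library gave 2.14 to 2.77 for Fstl5, 2.46 to 6.26 for Fstl4 and -0.10 to 0.22 for Fstl1. Without RSC replicates 2 and 3 and VHN replicate 3 they were 4.48, 7.98 and 0.32. On log2(FPKM + 1) Fstl4 was 0.85, which understates low genes by construction. With the replicate number as a block, Fstl4 was 5.53, Fstl5 2.85 and Fstl1 0.07, and the 4-group test called 1098 genes. The numbers did not pair the samples: correlations of same-numbered libraries were -0.026 to 0.038, and 1 of 12 libraries correlated best with its own number. Over all genes the 4-group test called 1243, and 892 to 1472 with 1 library left out, 2709 with no filter, 2408 with DESeq2 and 446 without the 3 libraries above. The comparison of both pairs called 1982, and 1488 to 2176 with 1 library left out and 746 without the 3. List genes called numbered 10 to 17 and 12 to 21 in the 2 tests with 1 library left out. They were 5 and 7 without the 3 libraries and 27 in the 4-group test with no filter, as chosen after seeing the data. Apart from fewer samples or more genes tested, the cause was not tested. In wells, a minimum of 5 counts gave shares of 19.0% for Fstl1, 1.72% for Fstl4 and 9.48% for Fstl5, and Fstl5 was 9.69% without plate Q8. Fstl4 rests on the least data of the members, with 448 fragments in 12 libraries and 9 wells.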
